A study of Mus musculus with 21 samples.

Results

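The subject was the group of gene models whose symbol is Gm followed only by digits, as they appear in the lists of single-nucleotide variants (SNVs) of mouse embryonic stem cells (ESCs) analysed by exome sequencing. A row was taken when its region was not intergenic and at least 1 of its gene names was such a symbol. This gave 252 distinct sites in 117 models and 1062 calls over 10 libraries, of 4358 distinct sites and 18125 calls in all ESC lists. The remaining 2258 sites (9794 calls) that the annotation assigned to a gene served for comparison. The study set ESC lines kept in 5 media against a mouse embryonic fibroblast (MEF) library to follow genome stability. All cells carried the strain name C57BL6X129S6F1. SL was serum at 15% with leukaemia inhibitory factor (LIF) at 1000 IU on feeder cells. 2iL was the serum-free N2B27 base with LIF, the GSK3 inhibitor CHIR99021 at 3 µM and the MEK inhibitor PD0325901 at 1 µM, on feeders. A2iL held the Src inhibitor CGP77675 at 1.5 µM in place of PD0325901, and LCDM held Dim and Mih at 2 µM each, as the labels abbreviate them, both with CHIR99021 at 3 µM, LIF and feeders. 2iL-F left the feeders out of 2iL. For each medium there were 2 libraries, which the labels number 3 and 5, and all 10 were called against the same MEF library. Nothing states that the libraries are separate cultures, so p-values measure only the spread between these samples. Genomic DNA holds no expression by which the cell type could be checked.

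The prefix Gm is a placeholder that mouse gene nomenclature gives to predicted genes without a functional name, and many lie in recently multiplied gene families. A segmental duplication is a long stretch of genome present elsewhere in nearly identical form. Because exome reads are short, a read from such a stretch can align to more than 1 copy, and a difference between copies can then look like an SNV; whether a listed call arose so was not tested. In the data, 227 of the 252 Gm sites lay in an annotated segmental duplication, 226 of them with the partner on the same chromosome, and the identity to the partner had a median of 98.3% (range 89.2 to 99.96%).

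RefSeq sequences on build GRCm38.p6, the assembly behind mm10, show how alike some of these copies are. Promoter windows of 250 bases upstream of the start were at hand for 83 of the 117 current symbols, and 17 of 3909 pairs of windows were at least 95% identical, against a median of 25.2% over all pairs. The 3 models below, all on the minus strand of chromosome 5, are near-identical members of 1 cluster of Gm calls described further on. They do not stand for the whole cluster: the window of Gm7361, also in it, was 73.2 to 74.4% identical to theirs. Capitals mark bases that differ from Gm21671. Gm1979 differs from it at 4 bases and Gm5862 at 5. They are Gm21671 at chr5:25954345-25954594, Gm1979 at chr5:26004728-26004977 and Gm5862 at chr5:26022892-26023141.
Gm21671: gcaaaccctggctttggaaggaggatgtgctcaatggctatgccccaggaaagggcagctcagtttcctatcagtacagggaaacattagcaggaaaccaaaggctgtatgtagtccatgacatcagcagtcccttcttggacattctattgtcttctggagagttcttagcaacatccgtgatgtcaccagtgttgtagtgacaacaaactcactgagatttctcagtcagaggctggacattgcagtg
Gm1979: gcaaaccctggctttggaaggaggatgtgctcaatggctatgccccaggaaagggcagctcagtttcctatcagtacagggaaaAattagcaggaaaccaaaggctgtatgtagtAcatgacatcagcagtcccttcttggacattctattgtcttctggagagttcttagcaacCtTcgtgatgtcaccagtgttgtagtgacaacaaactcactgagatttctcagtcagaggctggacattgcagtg
Gm5862: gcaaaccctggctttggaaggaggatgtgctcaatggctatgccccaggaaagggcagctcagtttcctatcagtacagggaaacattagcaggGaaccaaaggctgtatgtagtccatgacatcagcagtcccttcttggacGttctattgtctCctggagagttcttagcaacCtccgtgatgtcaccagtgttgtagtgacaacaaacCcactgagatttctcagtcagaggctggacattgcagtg

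Of the 252 sites, 4 fell inside a RefSeq promoter window, which runs to 50 bases past the start, and these can be read in their own sequence. In the lines below the capital is the reference base at the called site, on the strand of the gene, with 14 bases on each side. Gm17019 lies at chr5:15032983-15033011 on the minus strand, Gm3404 at chr5:146525789-146525817 and the Gm6902 call at chr7:22871137-22871165, both on the plus strand. The last of these sits 73 bases upstream of Vmn1r160, a vomeronasal receptor gene. Gm15284, now named Defa30 and so an alpha-defensin (an antimicrobial peptide of the gut), lies at chr8:21134661-21134689 on the plus strand. Defa28 at chr8:21583025-21583053 on the plus strand is added because it is the window that holds the alternative form of the Defa30 call.
Gm17019: ctgtgatgtcaccaGtgttgtagtgacaa
Gm3404: ttacctgacttactTgtctggaagtccta
Gm6902: attggtaagtgtggAcaatgaaacagaga
Gm15284: ccatgaagacactaAtcctcctctctgcc
Defa28: ccatgaagacactaGtcctcctctctgcc

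At Gm15284 the called change was A to G, the missense change I5V, in 11 of 153 reads of SL library 3 (fraction 0.0719, exact 95% binomial interval 0.0364 to 0.125). The 21 bases centred on that site, with the alternative base put in, occurred in 1 of 32851 promoter windows, that of Defa28, whose 29 bases differ from those of Defa30 only at the called base. The reference form occurred in the window of Defa30 alone. At the other 3 sites the reference form was the one that recurred. The Gm17019 form was found in the windows of 17 other symbols, among them Speer4c, Speer4d and Speer4e and the 3 models printed above, that of Gm3404 in the windows of 6 others and that of Gm6902 in 1 other, Vmn1r123. Their alternative forms were found in no window. Each of these 4 sites was listed in 1 library. Gm17019 had 103 alternative reads of 502 in LCDM library 3 (0.205, interval 0.171 to 0.243), Gm3404 had 8 of 153 in 2iL library 3 (0.0523, interval 0.0228 to 0.100) and Gm6902 had 4 of 81 in LCDM library 3 (0.0494, interval 0.0136 to 0.122). Intervals cover counting error only.

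Per library the lists held 1762 to 1858 calls at a median depth of 54 to 72 reads. Every Gm call was heterozygous in its genotype field and none had a dbSNP identifier. No 2 calls of a library were closer than 10017 bases on a chromosome, and the smallest gap between 2 Gm calls was 10121 bases. A site missing from a library may therefore have given way to another call within 10 kb, and statements on sharing are made for sites and for 10-kb loci.

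The calls were unevenly spread over the models. The 20 models with most sites held 130 of the 252 sites, and 67 models had 1 site. Gm13152, renamed Zfp982 and thus a zinc finger gene, came first with 27 sites and 92 calls, between 8 and 11 in each library. Gm21119 followed with 13 sites and 64 calls, 5 to 8 in each library, and none of its sites was private to a library. Gm3264 had 10 sites and 31 calls. Gm2083, renamed Mup13, a major urinary protein gene of the family whose products carry pheromones, had 8 sites and 31 calls. Gm5622 had 7 sites and 39 calls, and Gm5795 had 6 sites and 28 calls. The next were Gm13157 (Zfp984) with 6 sites, Gm13242 (Zfp980), Gm10324 and Gm10471 with 5 sites each, and Gm3500, Gm10406, Gm3636, Gm3696, Gm1995, Gm4884, Gm5797 and Gm7361 with 4 each. Gm4736 and Gm3558 closed the list with 3 sites each. All 20 were called in all 10 libraries.

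**Figure D1:**
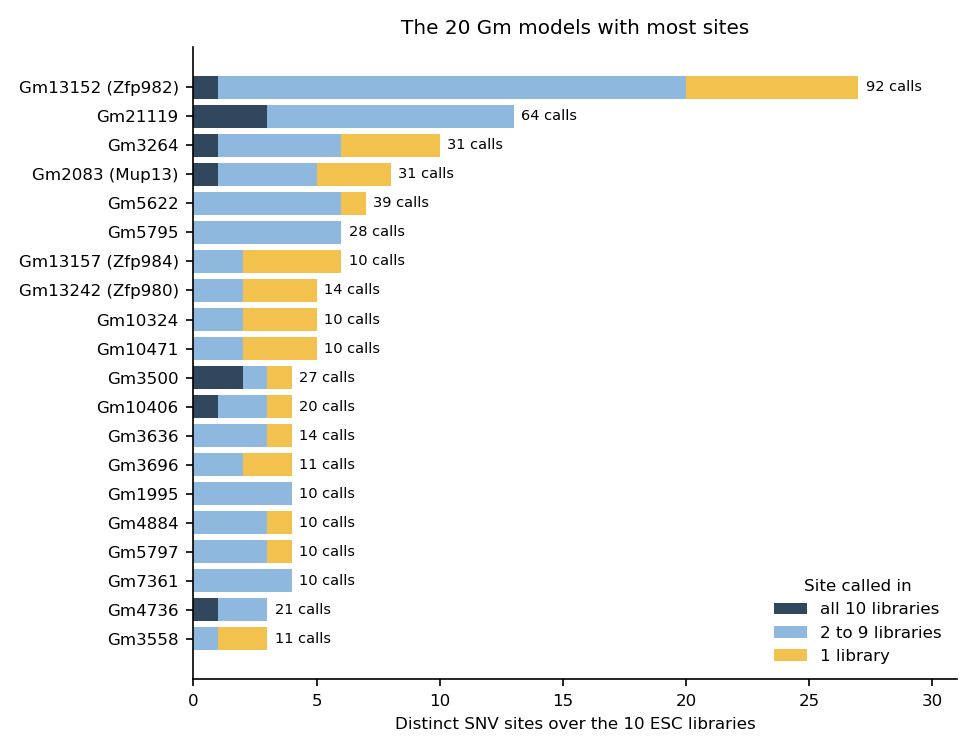
Horizontal bars give the number of distinct SNV sites (x axis) of the 20 Gm models with most sites, split into sites listed in all 10 ESC libraries, in 2 to 9 and in 1, with the number of calls beside each bar. Gm13152 leads with 27 sites and 92 calls, and 7 of the 20 models had a site listed in all 10 libraries, Gm13152 1 of its 27 and Gm21119 3 of its 13.

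Many of these names are old. RefSeq kept 93 of the 117 as symbols and held the remaining 24 only as synonyms: 8 were now Zfp genes, 6 Pramel genes (relatives of PRAME, active in germ cells and early embryos), 2 alpha-defensins, 1 a major urinary protein, 1 an olfactory receptor and 6 carried other names. By RefSeq type 96 models were protein-coding, 14 transcribed pseudogenes and 7 long non-coding RNAs. The name in the list and the RefSeq gene at the position often differed. Of the 252 sites 74 lay outside the RefSeq span of their own model, 64 of them inside another RefSeq gene and 10 in none, and 20 models had no site in their own span. Gm2083 is the clearest case. None of its 8 sites was in Mup13. They lay instead in Mup11, Mup22, Mup16, Mup17, Mup18 and Mup19, so 1 name stood for several members of the urinary protein family. The missense change K113M listed under it, in 9 libraries at fractions of 0.344 to 0.409, was in Mup18, and T113I, at 0.032 in A2iL library 5 and 0.042 in LCDM library 5, was in Mup19. Gm13152 had 5 of 27 sites in its own span and Gm21119 1 of 13. Gm3264 had 0 of 10. Gm7334 was listed on chromosome 16, where RefSeq places Btg3, while RefSeq has Gm7334 itself on chromosome 17.

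Sites chained by gaps of at most 1 Mb formed 48 clusters, and 6 of these had at least 10 sites and held 149 sites together. The one at chromosome 4, 143616315 to 147761139, had 55 sites and 193 calls in 15 models, with 18 to 23 calls in each library. RefSeq lists 15 Zfp and 18 Pramel genes in that interval beside 72 Gm symbols. Chromosome 14 carried a cluster of 28 sites (125 calls, 9 models) between 3051939 and 5735507, where 88 of the 94 RefSeq genes are Gm models, and one of 19 sites (66 calls, 5 models) between 6738280 and 7565160. All sites of both lay in segmental duplications. The cluster on chromosome 8, from 19752074 to 21250309, had 19 sites and 88 calls in Gm21119, Gm15319, Gm15284 and Gm15292. RefSeq lists 11 alpha-defensin (Defa) symbols there, the pseudogene Defa-ps6 among them. A cluster of 15 sites on chromosome 5, from 25949851 to 26261444, held Gm21671, Gm1979 and Gm5862, whose windows are printed above, with Gm10471, Gm10220 and Gm7361. The last, with 13 sites in 8 models, lay on chromosome 12 from 87773708 to 88271513 and held Gm10436. The clusters differed in allele fraction. Medians were 0.309 and 0.370 in the pair on chromosome 14 and 0.298 on chromosome 5, but 0.160 on chromosome 4, 0.161 on chromosome 8 and 0.162 on chromosome 12. They also differed in depth against MEF: 36.0 and 45.5% of the calls of the pair on chromosome 14 had a relative depth at least 2-fold away from the library's median. The share was 21.6% on chromosome 8, 15.1% on chromosome 5, 8.20% on chromosome 12 and 4.66% on chromosome 4. Over all calls it was 16.2% for Gm and 10.1% for other gene-assigned calls. These shares use the MEF depth field, which did not match the allele reads at many Gm sites, as described further on. These cluster values are descriptions, with no test.

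Most sites were non-coding. The annotation placed 154 in introns, 47 in coding exons, 18 in exons and 12 in introns of non-coding RNAs, 15 in 3′ and 4 in 5′ untranslated regions, and 2 at splice sites. The coding sites comprised 31 missense changes, 1 stop gain and 15 synonymous changes. All but 4 of these 47 lay in segmental duplications. Of the 47, 12 were listed in all 10 libraries and 12 in 1.

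Protein changes listed in all 10 libraries numbered 8. The stop gain W210X in exon 3 of Gm10436, renamed Pramel51 (chromosome 12, position 88177436), had fractions of 0.136 and 0.142 in SL, 0.172 and 0.170 in 2iL, 0.181 and 0.119 in A2iL, 0.168 and 0.175 in LCDM, and 0.191 and 0.142 in 2iL-F. Its depth was 275 to 434 reads, and MEF had 0 alternative reads of 247, which allows a fraction of up to 0.0121. The conditions overlapped: both the lowest and the next to highest values came from A2iL. The 7 missense changes covered a wide span of fractions. S46R in Gm13276 (chromosome 4, position 88785846) and N261S in Gm4736 (chromosome 6, position 132114693) were at the low end, with 0.074 to 0.105 and 0.050 to 0.114. S5P in Gm5592 (chromosome 7, position 41286088) was at 0.081 to 0.171. D30N in Gm5148 (chromosome 3, position 37714982), at 0.117 to 0.253, was the 1 change of the 8 outside segmental duplications. P697R in Gm5114 (chromosome 7, position 39408104) was at 0.232 to 0.284, N384S in Gm3259, renamed Pramel47 (chromosome 5, position 95342661), at 0.179 to 0.342, and P242L in Gm21190 (chromosome 5, position 15524894) at 0.320 to 0.448. No protein change was listed in both libraries of 1 condition and nowhere else. Of all Gm sites 7 were, all non-coding: Gm2042, Gm3264, Gm5622 and Gm7361 had 1 each in SL, and Gm3264, Gm11166 and Gm3409 had 1 each in 2iL. Fractions at these 7 had site medians from 0.0375 to 0.329.

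How many libraries shared a site depended on how closely a site was defined. Of the 252 sites 34 (13.5%) were listed in all 10 libraries and 75 (29.8%) in 1, against 17.9% and 34.8% of the other gene-assigned sites. Of the 117 models 62 were called in all 10 libraries, and 83 to 92 were called in each. A model counts as called when any of its sites is, so models are shared at least as much as their sites. Of the 62, 6 are names of the same single site (chromosome 10, position 104196090). Gm11237, Gm11236 and Gm38423, also among the 62, are names of another single site (chromosome 4, position 73638159). The share of other genes called in all 10 was not computed. Counted within libraries, 32.0% ± 1.00 (SD, n = 10) of the Gm calls were at a site listed in all 10, against 41.4% ± 0.776 of the other gene-assigned calls. The Gm share was lower in 10 of 10 libraries, with a mean difference of -9.32 percentage points (adjusted p = 0.00244, exact sign-flip test over libraries, 2-sided, the smallest unadjusted p it can give being 0.00195). When sites within 10 kb were merged into loci, the order turned: 69.3% of the Gm calls and 59.0% of the others were at a locus called in all 10 libraries, higher in 10 of 10 (adjusted p = 0.00244, same test). A locus counts as called when any of its sites is, so denser sites can raise sharing by the merging alone. The 252 Gm sites formed 148 loci and the 2258 others 1808. Whether the turned order follows from that was not tested. Outside segmental duplications the shares were 47.0 and 44.6% (adjusted p = 0.225), and inside them, a restriction chosen after seeing the data, they were 30.0 and 31.7% (difference -1.68, adjusted p = 0.0358). Among exonic calls the difference was -5.09 percentage points (adjusted p = 0.0195, exact sign-flip tests). All libraries share sites and the MEF control, so these p-values state only how evenly the libraries show the difference. Every library holds the same 34 Gm and 405 other sites listed in all 10, and only its number of calls varies. Agreement between libraries is thus largely built into this share, for loci and subsets too, and adds no support.

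**Figure D2:**
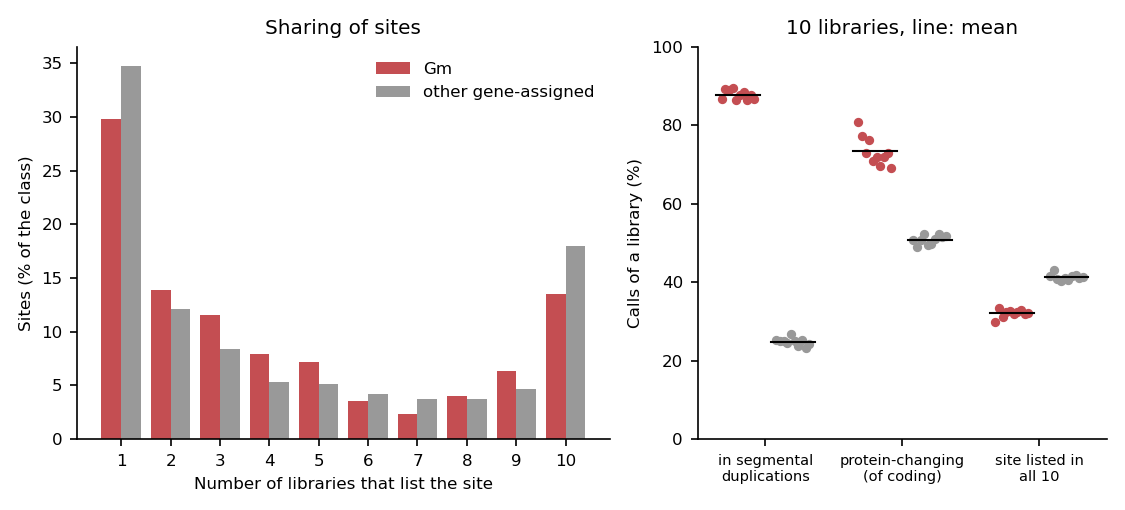
Left, the percentage of sites (y axis) listed in 1 to 10 of the ESC libraries (x axis), for Gm sites and for other gene-assigned sites. Right, 3 shares of the calls (%), 1 point per library with the mean as a line: in segmental duplications (Gm mean 87.9, other 24.8), protein-changing among coding calls (73.4 and 50.9) and at a site listed in all 10 libraries (32.0 and 41.4); the 2 classes did not overlap in any of the 3. Every library holds the same sites listed in all 10, so the last share varies only with its number of calls. Duplication and coding effect are fixed by site, and libraries list many of the same sites.

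Single models show how libraries can list different sites of the same locus. In 17 models with several sites, 53 in all, each library listed exactly 1 call. A model chosen in this way can have no site in all 10 libraries, so that absence is no result. The 10-kb spacing of the lists also allows at most 1 call per library where the sites of a model lie closer than that. Gm4884 (chromosome 7) had 4 coding sites in 1 exon. SL 3, 2iL 3, LCDM 3 and 2iL-F 3 listed the missense change P536L, SL 5, 2iL 5 and LCDM 5 listed I520K, A2iL 5 listed the synonymous L519L, and A2iL 3 and 2iL-F 5 listed the synonymous L464L. Fractions at these 4 sites were 0.045 to 0.103. Gm10324 (chromosome 13) had 5 coding sites, of which R483K was listed in 5 libraries, T350I in 2, and G389R, F551Y and the synonymous S477S in 1 each, namely LCDM 3, A2iL 5 and 2iL-F 5. Gm15284, the defensin gene, had I5V in SL 3, K30N in 5 libraries and an intronic site in the other 4. Gm7361 had 4 intronic sites, of which 1 was listed in both SL libraries alone. In Gm13152 pairs of neighbouring sites split the libraries in the same way: 1 site of a pair 7 bases apart was listed in SL 3, A2iL 3, LCDM 3, LCDM 5, 2iL-F 3 and 2iL-F 5, and its neighbour in SL 5, 2iL 3, 2iL 5 and A2iL 5. Of the 75 sites private to a library, 59 had another Gm site in the same 10-kb locus and 32 lay in a locus called in all 10 libraries.

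**Figure D3:**
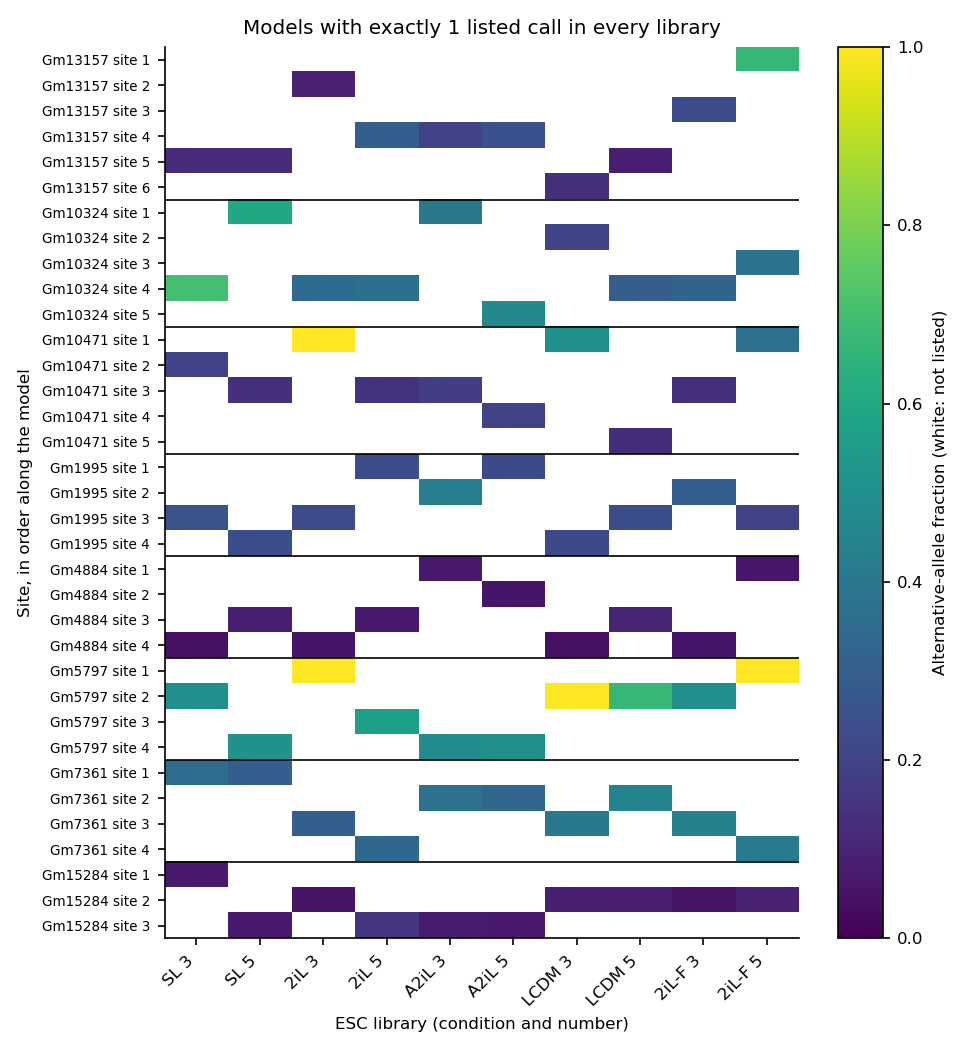
Rows are the sites of 8 Gm models in order along each model, columns the 10 ESC libraries, and colour the alternative-allele fraction, with white where the library does not list the site. The models were chosen because every library has exactly 1 coloured cell in each, so no row can be filled across all 10.

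Gm calls were set apart by duplication. In segmental duplications lay 87.9% ± 1.17 of the Gm calls and 24.8% ± 0.970 of the other gene-assigned calls (SD, n = 10 libraries), a difference of 63.0 percentage points with the same direction in 10 of 10 libraries (adjusted p = 0.00244, exact sign-flip test). Duplication is fixed by position, and every library holds the same 34 Gm and 405 other sites listed in all 10. Agreement between libraries is thus largely built in and adds no support. Counted once per site, the shares were 90.1 and 24.7%, without a test. Among symbol classes the share of sites in duplications was 90.1% for Gm, 85.3% for vomeronasal receptors (Vmn), 56.9% for Rik symbols, 40.5% for Zfp and 36.7% for olfactory receptors (Olfr). Protein-changing calls made up 73.4% ± 3.65 of the coding Gm calls, 16 to 21 of 21 to 26 in a library, and 50.9% ± 1.16 of the other coding calls. The difference of 22.5 percentage points was found in 10 of 10 libraries (adjusted p = 0.00244, exact sign-flip test). The coding effect is fixed by site, and libraries recount many of the same sites. Of the coding Gm sites 12 were listed in all 10 libraries, 8 of them protein-changing. Agreement between libraries is thus largely built in and adds no support. Inside segmental duplications, a restriction chosen after seeing the data, the shares were 73.6 and 59.3% (adjusted p = 0.00488, same test). Counted once per site, protein changes were 68.1% of 47 Gm and 53.9% of 685 other coding sites, without a test. By class they were 63.5% for Vmn (54 of 85), 60% for Rik (6 of 10), 48.9% for Olfr (23 of 47) and 46.7% for Zfp (7 of 15). The Rik and Zfp shares thus rest on few sites, and sites with a Gm name were left out of these classes.

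The median alternative-allele fraction of a library's Gm calls was 0.202 to 0.25, against 0.25 to 0.286 for other gene-assigned calls. It was lower in 10 of 10 libraries, with a mean difference of -0.0359 ± 0.0160 (adjusted p = 0.00244, exact sign-flip test). Inside segmental duplications the direction was the opposite: the means were 0.228 for Gm calls and 0.179 for others, higher in 10 of 10 libraries (adjusted p = 0.00488, same test). Outside duplications, where 25 Gm sites lay, they were 0.237 and 0.301, lower in 9 of 10 (adjusted p = 0.0163). The difference was -0.0179 for calls with at least 20 reads in library and MEF (adjusted p = 0.00488) and -0.0628 for exonic calls (adjusted p = 0.00244). For private calls the call was lost (0.0410, adjusted p = 0.570, exact sign-flip tests). Other gene-assigned calls thus had a lower fraction inside duplications than outside, while Gm calls had nearly the same in both; the difference between these patterns was not tested. A low fraction was not particular to Gm symbols. Over all calls of a class the median was 0.23 for Gm, 0.182 for Rik, 0.156 for Vmn, 0.138 for Zfp and 0.0945 for Olfr. Gm was thus above each of these classes, without a test.

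Depth in the ESC library was set against depth in MEF at the same position. Gm sites were read deeply, with median depths of 86 to 134 reads in a library against 50 to 66 at other gene-assigned calls, and 91 to 114 against 53 to 60 in MEF. The median log2 ratio of library to MEF depth differed between Gm and other calls by 0.02 on average, higher in 6 libraries and lower in 4 (p = 0.551, exact sign-flip test), a difference with a range over libraries of -0.11 to 0.16. It depended on which calls were compared, and passed the test in opposite directions in 2 subsets. Outside segmental duplications the difference was 0.19, with Gm calls higher in 9 of 10 libraries (adjusted p = 0.0163, exact sign-flip test), and among exonic calls it was -0.20, with Gm calls lower in 10 of 10 (adjusted p = 0.00244, same test). Both subsets are small: 25 Gm sites outside duplications, 6 of them listed in all 10 libraries, and 47 exonic Gm sites, 12 of them in all 10. The libraries thus repeat some of the same sites against the same MEF library. The upper tail was wider for Gm calls. After division by the median ratio of the library, 7.48 to 14% of the Gm calls of a library had at least 2-fold more depth relative to MEF, against 2.02 to 3.76% of the other calls, without overlap. The lower tail was not: 0 to 12.3% of the Gm calls of a library and 5.25 to 9.40% of the others had at least 2-fold less depth, and over all libraries the shares were 5.37 and 7.38%. Of the 34 Gm sites listed in all 10 libraries, 6 were at least 2-fold higher in every library, against 4 of 405 other gene-assigned sites, and 0 were at least 2-fold lower in every library, against 2 of the others.

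Those 6 sites were in Gm3500 (2 sites), Gm13276, Gm3264, Gm21119 and Gm10406. At the intronic Gm3500 site (chromosome 14, position 5369092) MEF had 44 reads, while SL had 367 and 306, 2iL 260 and 289, A2iL 347 and 347, LCDM 273 and 264, and 2iL-F 298 and 367. Relative depth there was 6.29 to 7.80, so all 10 libraries stood far above MEF and the conditions overlapped. The other Gm3500 site, in a 3′ untranslated region, was at 6.69 to 8. S46R of Gm13276 was at 4.43 to 5.59, with 639 to 843 reads against 149 in MEF. The Gm3264 site was at 2.67 to 4.36, the Gm21119 site at position 19942905 at 2.03 to 3.26 and the Gm10406 site at 2.00 to 2.63. Gm3558, listed in 9 libraries at its main site, had 6.55 to 9.99. By the depth field, the lowest values among sites in all 10 libraries were 0.328 to 0.725 in Gm13083 (Pramel21) and 0.372 to 0.685 at N384S of Gm3259. All these ratios rest on 1 MEF library.

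**Figure D4:**
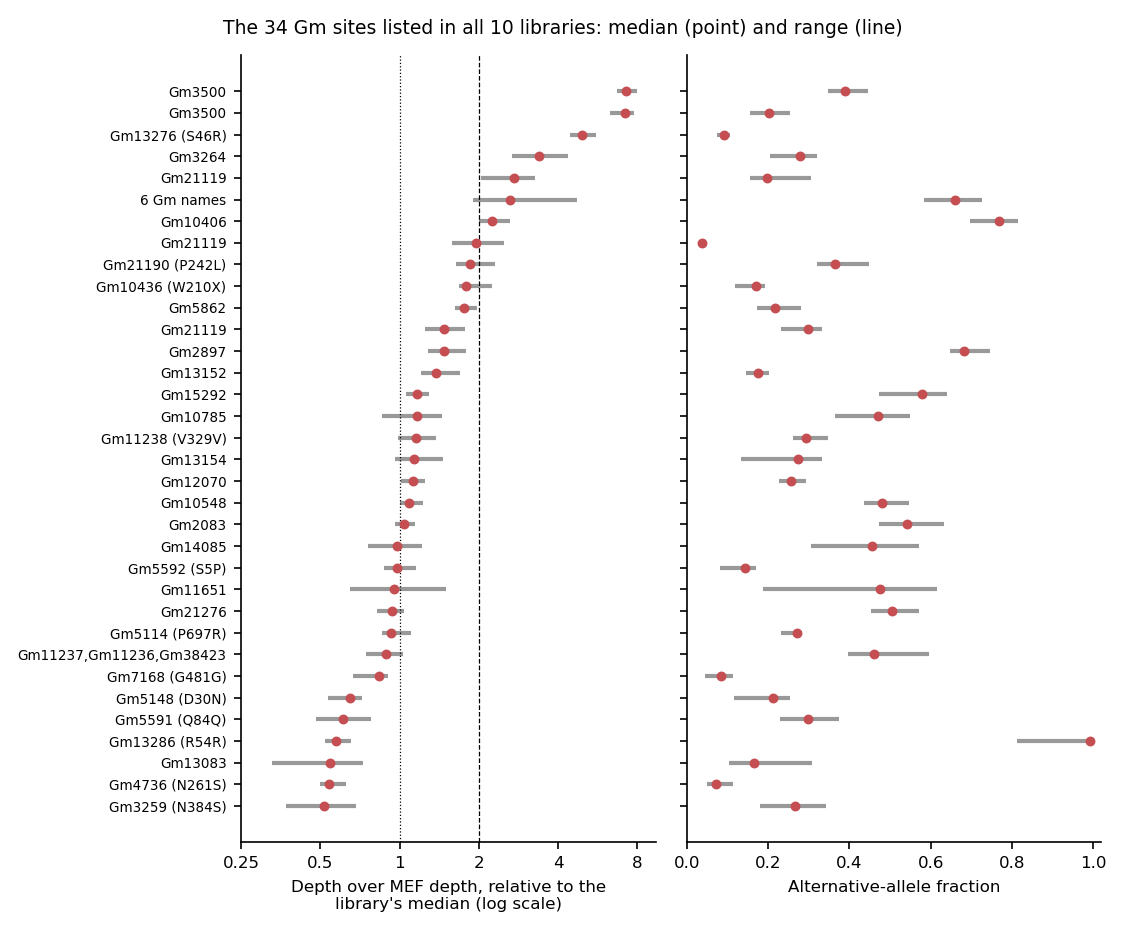
Each row is 1 of the 34 Gm sites listed in all 10 libraries, with its protein change where coding. The left panel gives library depth over MEF depth relative to the library's median (log scale, dotted line at 1, dashed line at 2) and the right panel the alternative-allele fraction; points are medians and lines ranges over the 10 libraries. The 2 Gm3500 sites reach 6.29 to 8 in depth, and Gm13286 stands alone near a fraction of 1.

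The MEF column carries 2 depths that did not match at many Gm sites. The reads of both alleles added up to more than the stated depth at 140 of 252 Gm sites (55.6%) and 337 of 2258 other sites (14.9%), and to more than 2-fold at 16 (6.35%) and 27 (1.20%). In the ESC columns they never did, in 1062 Gm and 9794 other calls. With allele reads in place of the depth field, Gm10406 fell from the 6 sites, with a relative depth of 0.998 to 1.32, and the other 5 stayed above 2-fold in all 10 libraries: 6.38 to 7.89 and 4.86 to 5.81 in Gm3500, 3.35 to 4.19 in Gm13276, 2.52 to 4.13 in Gm3264 and 2.10 to 3.38 in Gm21119. On the lower side 2 Gm sites were then at least 2-fold lower in all 10 libraries, where the depth field gave 0: N384S of Gm3259 at 0.179 to 0.328, with 498 allele reads in MEF against a depth of 230, and Gm21276 at 0.360 to 0.455, with 147 against 62. The other gene-assigned sites had 4 higher and 2 lower, as with the depth field. The difference between Gm and other calls became -0.07 on the log2 scale, lower in 9 of 10 libraries (p = 0.0117, exact sign-flip test). Allele reads as depth were added after seeing the data. No source used here says what the MEF depth leaves out.

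The conditions were compared first by number. Gm calls per library were 114 and 102 for SL (mean 108 ± 8.49, SD, n = 2), 109 and 105 for 2iL (107 ± 2.83), 104 and 107 for A2iL (105.5 ± 2.12), 105 and 103 for LCDM (104 ± 1.41) and 107 and 106 for 2iL-F (106.5 ± 0.707). No difference between conditions was detected beyond the spread between libraries (p = 0.934, exact permutation of F across the 945 ways to pair the libraries). They made up 9.48 to 10.5% of the gene-assigned calls of a library. Private Gm calls were 7 and 6 in SL, 8 and 7 in 2iL, 8 and 8 in A2iL, 14 and 7 in LCDM, and 5 and 5 in 2iL-F (p = 0.295, same exact test). LCDM library 3 was the high one, but its partner was not. Without LCDM library 5 the exact p was 0.00952, but LCDM was then 1 library, assumed to vary like the other pairs, so that value describes LCDM library 3 and not the medium. The libraries of 1 condition shared somewhat more Gm sites than libraries of different conditions. Sharing by condition was not computed for other gene-assigned sites, so the pattern is not shown to be particular to Gm sites. The Jaccard index, shared sites over sites in either library, was 0.505 within conditions and 0.470 between them (difference 0.0350, p = 0.0127, exact permutation test). It lost the threshold without 2iL library 5 (p = 0.0561), either A2iL library (0.154 without library 3 and 0.124 without library 5) or either 2iL-F library (0.122 and 0.0730), and for 10-kb loci, where the indices were 0.779 and 0.768 (p = 0.432, exact permutation test throughout).

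At sites listed in all 10 libraries the fraction itself could be compared across the 5 conditions. Of 636 such sites of any annotation, 34 (5.35%) differed in a moderated F test over conditions on log-odds of the fraction (limma, Benjamini-Hochberg adjusted p under 0.05), and of the 34 Gm sites 3 did. At that rate the Gm count is near the background. These fits were added after seeing the data. Gm13286 (chromosome 4, position 88758005, the synonymous R54R) had 0.881 and 0.812 in SL, 0.991 and 1.00 in 2iL, 0.938 and 0.860 in A2iL, 1.00 and 1.00 in LCDM, and 0.992 and 1.00 in 2iL-F. SL and A2iL were below the other 3 conditions with no overlap (adjusted p = 0.00445). The exact 95% interval was 0.722 to 0.883 for the lowest library and 0.970 to 1.00 for 2iL-F library 5, and MEF had 0 alternative reads of 208, which allows a fraction of up to 0.0144. Without each library in turn its adjusted p was 0.00182 to 0.0188. Its depth relative to MEF was 0.519 to 0.651.

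The other 2 sites differed less. An intronic site given 3 names, Gm11237, Gm11236 and Gm38423 (chromosome 4, position 73638159), had 0.455 and 0.410 in SL, 0.468 and 0.440 in 2iL, 0.396 and 0.401 in A2iL, 0.503 and 0.482 in LCDM, and 0.563 and 0.595 in 2iL-F, with 2iL-F the highest and apart from the rest (limma, adjusted p = 0.00597). P242L of Gm21190 had 0.320 and 0.340 in SL, 0.352 and 0.323 in 2iL, 0.390 and 0.379 in A2iL, 0.401 and 0.335 in LCDM, and 0.376 and 0.448 in 2iL-F, with overlap between conditions (limma, adjusted p = 0.0165). Gm21190 no longer passed without either SL library, and without 2iL-F library 5 Gm13286 was the 1 Gm site left.

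**Figure D5:**
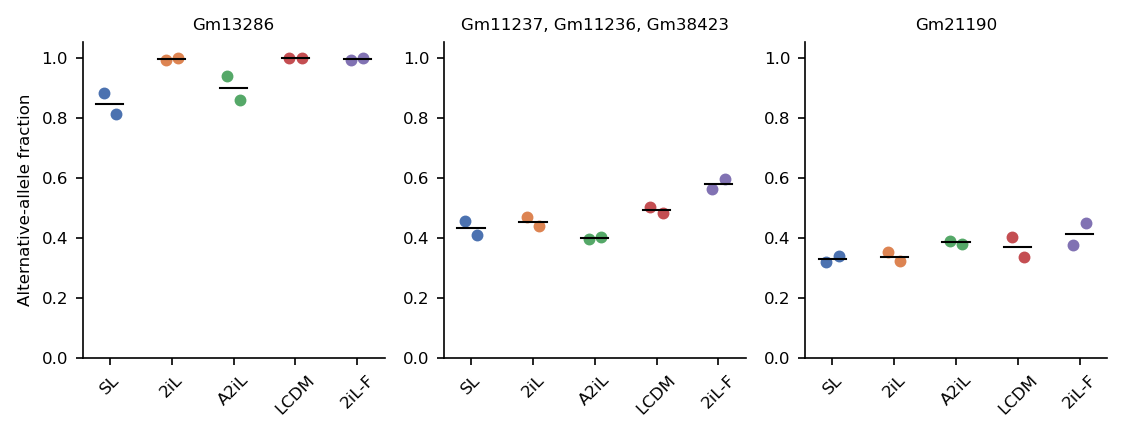
Alternative-allele fraction (y axis) in the 2 libraries of each of the 5 conditions (x axis) at the 3 Gm sites that passed the limma test over conditions, with the condition mean as a line. Gm13286 is at 0.812 to 0.938 in SL and A2iL and at 0.991 to 1.00 elsewhere, and the site shared by 3 Gm names is highest in 2iL-F, at 0.563 and 0.595.

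Relative depth gave no such call. Of the 636 sites 0 (0%) passed the same test on log2 relative depth, and 65 had an unadjusted p under 0.05, 7 of them in Gm models (limma with a robust constant prior). With a prior variance that follows depth, limma called 20 (3.14%), of which 6 were Gm sites. That count rested on single libraries: all calls numbered 1 without SL library 3 and 2 without SL library 5, 1 of them Gm21119 each time, and 57 without either LCDM library. The Gm21119 site at chromosome 8, position 19784831, had relative depths of 1.59 and 1.58 in SL, 2.00 and 2.01 in 2iL, 1.84 and 1.78 in A2iL, 1.92 and 2.22 in LCDM, and 2.49 and 2.47 in 2iL-F, with 885 to 1557 reads and fractions of 0.029 to 0.047. SL was the lowest and 2iL-F the highest there, each apart from the rest, but the constant-prior fit did not call it.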

How the data were processed

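SNV lists of 10 ESC libraries were used, each with the library and the MEF control side by side. Per the submitters' processing notes BWA, SAMtools and Picard were used on mm10; versions and the SNV caller are not given in the sources used here. Each deposited column joins, per the file headers, genotype, reads per allele, base quality, depth and alternative-allele fraction, and the authors' lists hold calls marked as somatic. Gene, region, duplication, repeat and dbSNP build 142 annotations are the authors'. Computed here were sharing, depth ratios and shares per library (Python 3.11.15, numpy 2.4.6, pandas 2.3.3, scipy 1.17.1). Conditions were compared by exact permutation, Gm with other calls by exact sign-flip over libraries, adjusted by Benjamini-Hochberg over 5 measures. Log-odds of the fraction (0.5 added to each allele's reads, weighted by reads) and log2 relative depth at sites in all 10 libraries were fitted with limma 3.58.1 (R 4.3.3), added after the data were seen, since the design held no such fit. Figures were drawn with matplotlib 3.10.9. Scripts were tested on simulated data. Models were named as the 20 with most sites, stop gains or losses, protein changes in all 10 libraries or in 1 condition's pair alone, and clusters of at least 10 sites with gaps up to 1 Mb; other names were chosen after their values were seen. The members and lists were chosen with earlier results of these data known. Tumour and blood lists were not used, and no per-sample column of the ESC lists was left out.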

Additional observations from a re-analysis of the deposited data

How the results depend on the processing

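The design sets the limits: 2 libraries per condition, 1 MEF library, and lists spaced by 10 kb, so that absence from a list is not absence of the variant. Leaving out each library in turn gave p of 0.0751 to 0.985 for Gm calls by condition and 0.00952 to 0.648 for private Gm calls, each with 1 condition reduced to a lone library, and differences of 0.0260 to 0.0455 in the Jaccard index, 62.8 to 63.4 percentage points in the duplicated share, -0.0382 to -0.0327 in the fraction, -0.000206 to 0.0294 in log2 depth, -10.1 to -6.40 percentage points in the share listed in all 10 and 21.7 to 23.1 in the protein-changing share (exact permutation and sign-flip tests). The log2 depth difference, 0.0158 without a call, was -0.0453 for calls with at least 20 reads in library and MEF and -0.0431 with at least 5 alternative reads, 0.189 outside duplications and -0.203 for exonic calls, both past the threshold, -0.102 for private calls, and, among settings chosen after seeing the data, -0.0383 inside duplications and -0.0722 with allele reads as depth. The fraction difference was 0.0410 for private calls, not past the threshold, and 0.0490 inside duplications, past it, and -0.0179 with at least 20 reads and -0.0628 for exonic calls, both past it. The difference in the share listed in all 10 was 2.43 outside duplications, not past the threshold, and 10.3 for 10-kb loci, -1.68 inside duplications and -5.09 for exonic calls, all past it. Every library holds the same sites listed in all 10, so agreement between libraries is largely built into that share. The duplicated and protein-changing shares rest on annotations fixed by site, so their agreement is largely built in too. Merging into loci can by itself raise sharing more where sites are denser, as Gm sites were. The Jaccard difference was 0.0204 outside duplications, 0.0344 for exonic calls and 0.0111 for loci, none past the threshold. With the number 3 or 5 as a replicate block the exact p was 0.892 for Gm calls, 0.2 for private calls and 0.0167 for the Jaccard difference of 0.0350, with no change of call; number 3 had more Gm calls than number 5 in 4 of 5 conditions, and nothing shows that the numbers pair libraries. Of the limma counts, the Gm sites with a fraction that differed were 3, or 1 to 3 without a library, and 3 with a variance trend on depth; those with a depth that differed were 0, 0 to 0 without a library and 6 with the trend. The protein-changing share of private calls could not be computed, since some libraries had no private coding Gm call. The causes of these changes were not tested.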
